A study of Mus musculus with 12 samples.

Results

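Neuropeptides are cut from larger precursor proteins, stored in dense-core granules and released beside the fast transmitters of a neuron. In the retina they are made mainly by sets of amacrine cells, the interneurons of the inner retina, and by some retinal ganglion cells (RGCs), whose axons form the optic nerve. The 10 precursor genes described here were chosen by symbol, among the 25655 genes measured, as neuropeptides of these cells. They are Penk (enkephalins), Vip (vasoactive intestinal peptide), Sst (somatostatin), Npy (neuropeptide Y), Tac1 (substance P and neurokinin A), Cck (cholecystokinin), Pdyn (dynorphins), Adcyap1 (pituitary adenylate cyclase-activating peptide), Nts (neurotensin) and Nppb (B-type natriuretic peptide). Penk was singled out because of its change in these data, so its levels and fold changes are a description and carry no test.

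Whole retinas of C57BL/6J mice, 8 to 10 weeks old, were taken 2 days after optic nerve crush (ONC), and every group, controls included, had the crushed nerve. The left eye received an intravitreal injection of PBS, of fluvastatin (a statin, which inhibits cholesterol synthesis), of MBV (matrix-bound nanovesicles, here from decellularized pig bladder), or of both, with 3 samples in each of 4 groups. The 9 libraries of PBS, fluvastatin and MBV are described, and the combined treatment was not analysed here. No uninjured retina was analysed here, so a level cannot be set against that before the crush.

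The libraries held 21349516 to 30992040 counts on genes. The library numbers of the fluvastatin and MBV samples belong to a different set from those of PBS, so treatment and library set cannot be told apart in either comparison with PBS, while MBV and fluvastatin lie in the same set. Genes of photoreceptors, the most abundant cells of the retina, summed to between 25806 and 40512 CPM (counts scaled to the library total) in every library, and none of the amacrine, RGC or photoreceptor markers examined was at 0. Lens crystallins and other lens markers summed to 2.09 to 6.53 CPM in PBS, 2.88 to 21.7 CPM with fluvastatin and 61.3 to 160 CPM with MBV, and markers of infiltrating leukocytes to 24.7 CPM in MBV replicate 3 against 2.603 to 6.34 CPM in the other 8 libraries. Fluvastatin replicate 1 and MBV replicate 3 stood apart from the other libraries of their groups in Penk and in the genes that followed it. All 10 members gave counts in at least 1 library of every group.

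Promoters of 9 of the 10 genes were in the RefSeq table for GRCm38.p6, each with 250 bases before and 50 after the start of transcription. Those of Npy, Sst, Tac1 and Adcyap1 are shown because Npy and Sst were both higher with treatment and because Tac1 and Adcyap1 had nearly the same pattern over the libraries. They lie at chr6:49822460-49822759 (+), chr16:23890795-23891094 (-), chr6:7554811-7555110 (+) and chr17:93198767-93199066 (+), the last being the upstream of the listed starts of Adcyap1. Each runs 5′ to 3′ along its gene, and capitals mark the motifs searched. These were the cAMP response element TGACGTCA, its core TGACG and the GC box GGGCGG on both strands, and TATAAA on the gene's own strand.
Npy: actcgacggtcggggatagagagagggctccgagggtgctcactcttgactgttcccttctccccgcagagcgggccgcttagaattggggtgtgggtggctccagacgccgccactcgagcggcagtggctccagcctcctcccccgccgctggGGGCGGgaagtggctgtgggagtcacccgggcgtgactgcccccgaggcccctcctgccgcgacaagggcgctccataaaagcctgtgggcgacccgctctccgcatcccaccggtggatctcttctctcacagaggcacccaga
Sst: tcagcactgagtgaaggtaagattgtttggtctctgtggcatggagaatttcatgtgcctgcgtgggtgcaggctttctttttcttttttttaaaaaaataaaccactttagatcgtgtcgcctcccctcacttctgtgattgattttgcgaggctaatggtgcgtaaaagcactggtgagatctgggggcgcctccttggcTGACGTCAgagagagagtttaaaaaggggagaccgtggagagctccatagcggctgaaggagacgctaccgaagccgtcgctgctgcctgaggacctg
Tac1: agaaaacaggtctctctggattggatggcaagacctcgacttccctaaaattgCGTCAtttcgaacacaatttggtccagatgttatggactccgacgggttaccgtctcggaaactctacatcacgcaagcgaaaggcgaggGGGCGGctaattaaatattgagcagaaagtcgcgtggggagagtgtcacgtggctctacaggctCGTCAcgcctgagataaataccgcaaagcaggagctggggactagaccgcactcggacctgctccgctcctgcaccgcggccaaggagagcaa
Adcyap1: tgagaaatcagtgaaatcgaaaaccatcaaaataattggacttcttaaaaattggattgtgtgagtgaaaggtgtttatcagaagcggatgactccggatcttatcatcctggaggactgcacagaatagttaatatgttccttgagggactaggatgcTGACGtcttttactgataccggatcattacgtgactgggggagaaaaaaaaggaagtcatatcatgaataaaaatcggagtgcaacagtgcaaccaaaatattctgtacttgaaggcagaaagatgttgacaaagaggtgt
The full TGACGTCA was found in Sst alone among the 9 genes, 48 bases before the start, and in 1.79% of all 32851 promoters of the table. The core TGACG, which the full element holds on both strands, was in 6 of the 9 genes, Vip, Sst, Tac1, Cck, Adcyap1 and Nts, against 20.8% of all promoters. GGGCGG stood in the Npy and Tac1 windows and in 35.7% of all promoters, and TATAAA in windows of Vip, Nppb and the downstream start of Adcyap1 and in 8.32% of all. None of these motifs was in the windows of Pdyn.

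To rank the precursors against each other, CPM was divided by the length of the canonical transcript in kilobases. In PBS Penk had the highest level at 16.5 ± 0.737 CPM per kb (SD, n = 3), followed by Npy at 9.85 ± 0.514, Tac1 at 7.55 ± 0.780, Pdyn at 5.53 ± 0.158, Vip at 4.58 ± 0.532, Adcyap1 at 2.79 ± 0.482 and Cck at 1.56 ± 0.130 CPM per kb. The ranges of these neighbours did not overlap. Sst, at 0.646 ± 0.0966 CPM per kb, was not separated from Nppb, at 0.377 ± 0.142, and Nts came last at 0.120 ± 0.0619 CPM per kb. With either treatment Npy headed the order, at 16.8 ± 2.37 CPM per kb with fluvastatin and 19.4 ± 2.47 with MBV, apart from Tac1 in the second place. Penk took the third place by its mean with fluvastatin and the fifth with MBV, and overlapped its neighbours in both.

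**Figure D1:**
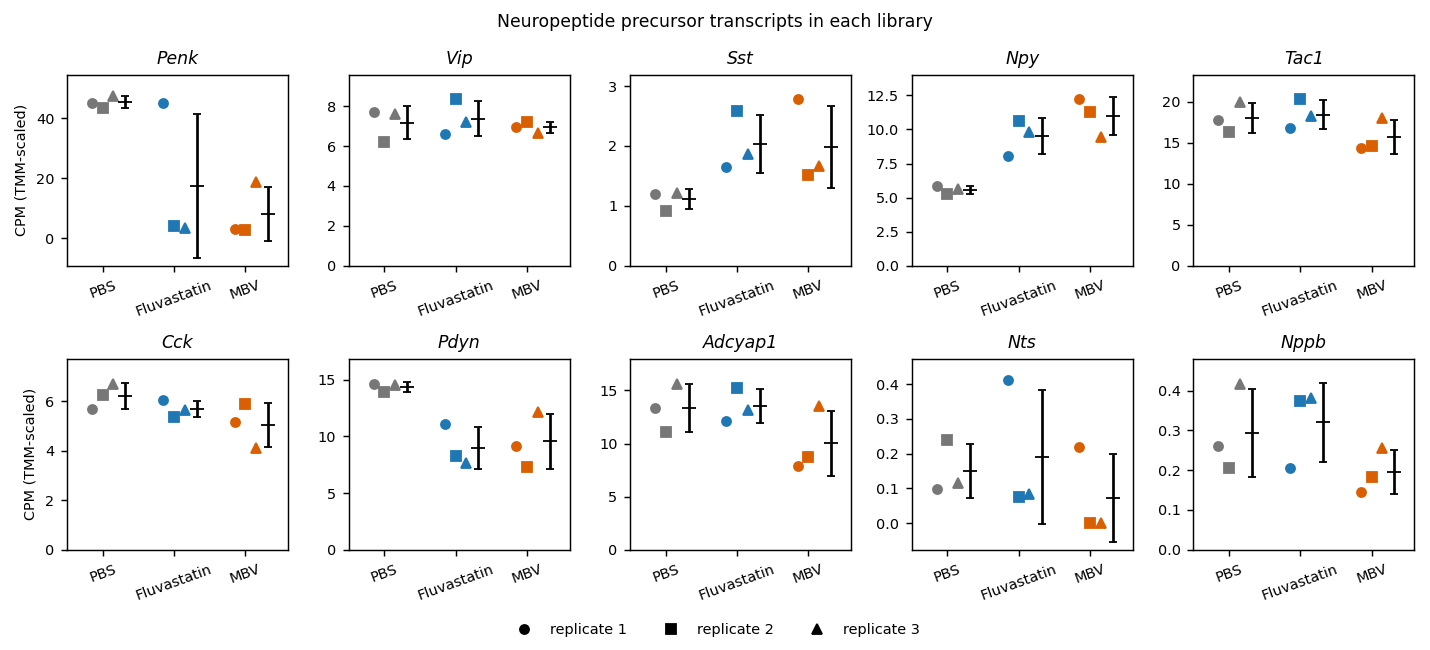
TMM-scaled CPM of the 10 precursors in the 9 libraries. Points are libraries, marked by replicate, and the bars beside them give the mean ± SD of 3. Penk in fluvastatin replicate 1, at 45.1 CPM, lay among the PBS libraries, while the other libraries given fluvastatin or MBV lay at 18.6 CPM or below.

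Penk was lower than in any PBS library in 5 of the 6 treated libraries. Its precursor, preproenkephalin, yields the enkephalins, ligands of the delta and mu opioid receptors. The gene lies on chromosome 4 at 4133531 to 4138819 on the minus strand (GRCm39), and overlaps 2 long non-coding RNA genes of the other strand, Gm70307 and A830012C17Rik. Whether counting used strand is not stated in the sources used here, so reads of these transcripts cannot be told apart from those of Penk.

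Penk had 1383, 1271 and 1247 counts in the PBS libraries, or 44.9, 43.4 and 47.4 CPM. With fluvastatin it had 1094, 107 and 81 counts, or 45.1, 4.0 and 3.43 CPM. With MBV it had 82, 60 and 436 counts, or 3.00, 2.74 and 18.6 CPM. The PBS libraries were close together, whereas within each treatment a single library stood far above the other two. As a share of the PBS mean, Penk was at 99.6% in fluvastatin replicate 1, 8.85% in replicate 2 and 7.59% in replicate 3, and at 6.63%, 6.06% and 41.2% in MBV replicates 1, 2 and 3.

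The group means were therefore made of unlike libraries. They were 45.2 ± 2.02 CPM in PBS, 17.5 ± 23.9 CPM with fluvastatin and 8.13 ± 9.11 CPM with MBV (SD, n = 3). The fitted log2 fold change from PBS was -1.38 (SE 0.685) for fluvastatin and -2.50 (SE 0.542) for MBV. The fluvastatin range overlapped that of PBS and the MBV range lay below it. Without fluvastatin replicate 1 the log2 fold change was -3.60, and without MBV replicate 3 it was -3.98. Between the treatments it was -1.11 (SE 0.987), MBV relative to fluvastatin, and turned to 1.12 without fluvastatin replicate 1, so the order of the treatments rested on that library. In a whole retina, fewer cells of a type and less RNA per cell cannot be told apart.

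The spread of Penk was narrow within PBS and wide within both treated groups. The highest PBS library was 1.09 times the lowest, against a median of 1.11 over 13934 genes that had a mean of at least 1 CPM and more than 3 counts in each library. With fluvastatin the same ratio was 13.1, the ninth largest of those genes (rank 9), and with MBV it was 6.81 (rank 36), against medians of 1.13 and 1.12. Among the other members that met these limits the largest such ratios were 1.57 for Sst with fluvastatin and 1.84 for Sst with MBV.

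The genes whose log2 levels followed Penk most closely over the 9 libraries were Klhdc7a (Pearson r = 0.996), Mfap4 (0.993), Otx1 (0.989) and Ogn (0.988). The libraries share group, set and depth, so these values are a description. Mfap4 encodes a microfibril-associated glycoprotein, Otx1 a homeobox factor of the ciliary and iris epithelium and of cortex, and Ogn the small proteoglycan osteoglycin. Mfap4 had 10.3 to 12.4 CPM in PBS and between 0.382 and 0.636 CPM in the 4 libraries where Penk was lowest (fluvastatin replicates 2 and 3 and MBV replicates 1 and 2), with 14.0 CPM in fluvastatin replicate 1 and 6.97 CPM in MBV replicate 3. Of 13971 genes with a mean of at least 1 CPM, 169 (1.21%) had an r with Penk of at least 0.9.

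Of the marker lists, those of the ciliary and iris epithelium and of Müller glia had a pattern like that of Penk in most, but not all, of their genes. Markers of the ciliary and iris epithelium, the non-neural margin of the retina, summed to 90.3 to 98.1 CPM in PBS, 97.1, 60.8 and 57.2 CPM in the fluvastatin replicates and 59.2, 48.3 and 94.96 CPM in the MBV replicates. Of the 5 of this list with a mean of at least 1 CPM, 4 had an r with Penk of at least 0.8 (Otx1, Mfrp, Bmp4 and Col9a1), and the defining marker Msx1 had 9 to 16 counts in PBS, 1 to 6 with fluvastatin and 0, 2 and 5 with MBV. Wnt2b of the same list ran the other way, with an r of -0.673. Col9a1 was the largest part of the list's sum, with a mean of 42.5 CPM in PBS, and was called in neither comparison with PBS. In MBV replicate 3 it had 54.6 CPM, above its PBS range of 37.1 to 46.0 CPM. Otx1 had 1.63 CPM in that library, below its PBS range of 2.87 to 4.41 CPM. Müller glia markers summed to 2853 to 3519 CPM in PBS, 2785, 1696 and 1407 CPM with fluvastatin and 1809, 1208 and 2764 CPM with MBV, with Glul, Aqp4 and Apoe at an r of at least 0.8 among 5 genes. The others, Rlbp1 and Slc1a3, had an r of 0.632 and 0.106, and of -0.288 and -0.229 over the 6 treated libraries. Glul made up most of that sum, with a mean of 2332 CPM in PBS. Fibroblast markers summed to 103 to 108 CPM in PBS, 111, 89.2 and 86.8 CPM with fluvastatin and 86.2, 68.9 and 116 CPM with MBV, and only 2 of the 8 with a mean of at least 1 CPM (Col1a2 and Ogn) had an r with Penk of at least 0.8, the lowest being -0.658 for Col3a1. Summed pigment cell markers were below PBS in all 6 treated libraries, at 36.2 to 70.3 against 110 to 155 CPM, with 3 of 8 (Pmel, Mlana and Tyrp1) at an r of at least 0.8. The pigment epithelium genes Rpe65, Lrat and Rdh5 of that list had negative r, -0.103, -0.397 and -0.545. The lists were chosen with earlier results of these data known, so their likeness to Penk is a description. The share of all 13971 genes with an r with Penk of at least 0.8 was not counted. The list counts at that limit therefore cannot be read as an excess over all genes. The 1.21% given above is for the stricter limit of 0.9 and is no measure for them. The part of these cells in the Penk values was not tested.

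The r with Penk ran from -0.788 to 0.285 over the 12 amacrine markers and from -0.764 to -0.143 over the 12 RGC markers. These values are a description. The summed amacrine markers were 1022 to 1095 CPM in PBS, 1081 to 1260 CPM with fluvastatin and 1115 to 1174 CPM with MBV. The summed RGC markers were 623 to 767, 708 to 955 and 665 to 817 CPM in the same groups. In the 4 libraries where Penk was at most 4.0 CPM, neither sum was below its lowest PBS value. The RGC sum of MBV replicate 1, at 665 CPM, was however below PBS replicates 1 and 3, at 710 and 767 CPM. Nefl alone had a mean of 339 CPM in PBS. Sums over whole lists cannot show a change in a small set of these cells.

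**Figure D2:**
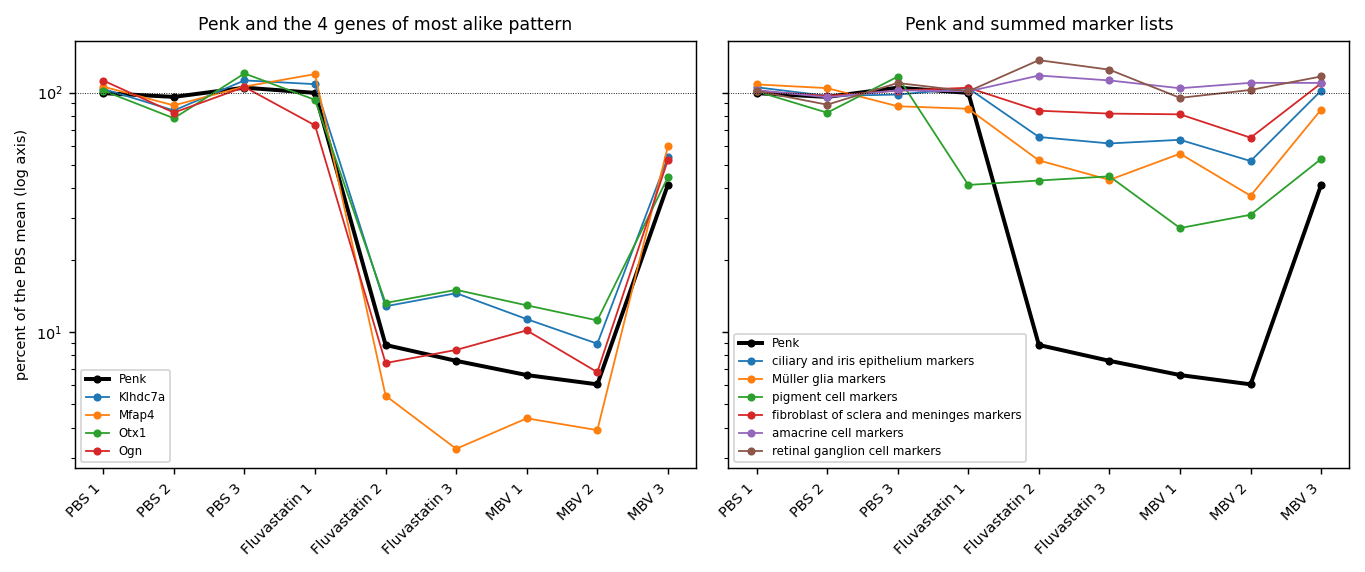
Penk, its 4 most similar genes (left) and the summed CPM of marker lists (right) in each library, as a percentage of the PBS mean on a log axis. In fluvastatin replicate 1 Penk was at 99.6% and Ogn, at 7.33 CPM, below its PBS range of 8.29 to 11.3 CPM. All 5 genes were lower in fluvastatin 2 and 3 and in MBV 1 and 2, and lay between in MBV 3, where Penk was at 41.2%, while amacrine and RGC markers stayed near or above 100%.

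Compared with PBS, Npy and Sst were higher and Pdyn was lower with fluvastatin, and Npy was higher and Pdyn lower with MBV. These calls were made by edgeR's quasi-likelihood test at a false discovery rate (FDR) under 0.05, adjusted over all genes tested, on the 9 members other than Penk. With fluvastatin, 2 members were called higher, 1 lower and 6 not, where 19.6% of 18818 genes were called in either direction (9.36% higher and 10.2% lower). With MBV, 1 was called higher, 1 lower and 7 not, where 26.1% of 18897 genes were called (12% higher and 14.1% lower). The median log2 fold change of all 10 members was 0.04 with fluvastatin and -0.37 with MBV, against -0.01 and 0.01 over all genes. The comparisons share the PBS libraries, so their values are set side by side and were not counted as separate evidence.

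Npy, the precursor of neuropeptide Y, rose in both comparisons. The gene is on chromosome 6 at 49799690 to 49806487 (plus strand, GRCm39). It had 5.82, 5.25 and 5.66 CPM in PBS, 8.03, 10.7 and 9.84 CPM with fluvastatin and 12.2, 11.3 and 9.45 CPM with MBV. Every treated library lay above every PBS library. The mean rose from 5.58 ± 0.291 CPM to 9.51 ± 1.34 with fluvastatin (log2 fold change 0.77, SE 0.123, edgeR FDR = 0.00274) and to 10.98 ± 1.40 with MBV (0.97, SE 0.116, edgeR FDR = 0.000814). Both calls held in every fit that left out a library. Penk and Npy ran opposite ways over the libraries (r = -0.892).

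Pdyn, the precursor of the dynorphins, which act at the kappa opioid receptor, fell in both comparisons. It lies on chromosome 2 at 129528485 to 129541764 (minus strand, GRCm39). It had 14.7, 13.9 and 14.5 CPM in PBS, 11.1, 8.26 and 7.63 CPM with fluvastatin and 9.17, 7.31 and 12.1 CPM with MBV. All 6 treated libraries lay below all PBS libraries. The mean dropped from 14.4 ± 0.411 CPM to 8.99 ± 1.84 with fluvastatin (log2 fold change -0.68, SE 0.126, edgeR FDR = 0.00537) and to 9.54 ± 2.44 with MBV (-0.60, SE 0.151, edgeR FDR = 0.0191). The highest treated libraries were fluvastatin replicate 1 and MBV replicate 3, as for Penk, but the spread was far narrower, 1.45-fold and 1.66-fold within the treated groups. The MBV call was lost without PBS replicate 1 (edgeR FDR = 0.0688), PBS replicate 2 (0.0506) or MBV replicate 1 (0.0719). The genes closest to Pdyn in pattern were Atp1b3 (r = 0.990), Pygb (0.984), Dkk3 (0.982), Plaat3 (0.979) and Mme (0.979), the last of which encodes neprilysin, an enzyme that cleaves enkephalins and other peptides.

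Sst, whose product somatostatin inhibits transmitter release, was present at low levels. It lies on chromosome 16 at 23708323 to 23709708 (minus strand, GRCm39). It had 37, 27 and 32 counts in PBS, 40, 69 and 44 with fluvastatin and 76, 33 and 39 with MBV, or 1.2, 0.921 and 1.22 CPM, 1.65, 2.58 and 1.87 CPM and 2.78, 1.51 and 1.67 CPM. On the CPM scale every treated library was above every PBS library. Sst rose from 1.11 ± 0.166 to 2.03 ± 0.487 CPM with fluvastatin (log2 fold change 0.87, SE 0.243, edgeR FDR = 0.0307). With MBV the mean was 1.98 ± 0.691 CPM and the log2 fold change 0.84 (SE 0.284, 95% interval 0.19 to 1.48), with an edgeR FDR of 0.0591. The fluvastatin call was lost in 5 of the 6 fits that left out a library, all but that without fluvastatin replicate 1, with an edgeR FDR of 0.0503 to 0.130. The MBV result passed without MBV replicate 2 (0.0442) or 3 (0.0273).

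**Figure D3:**
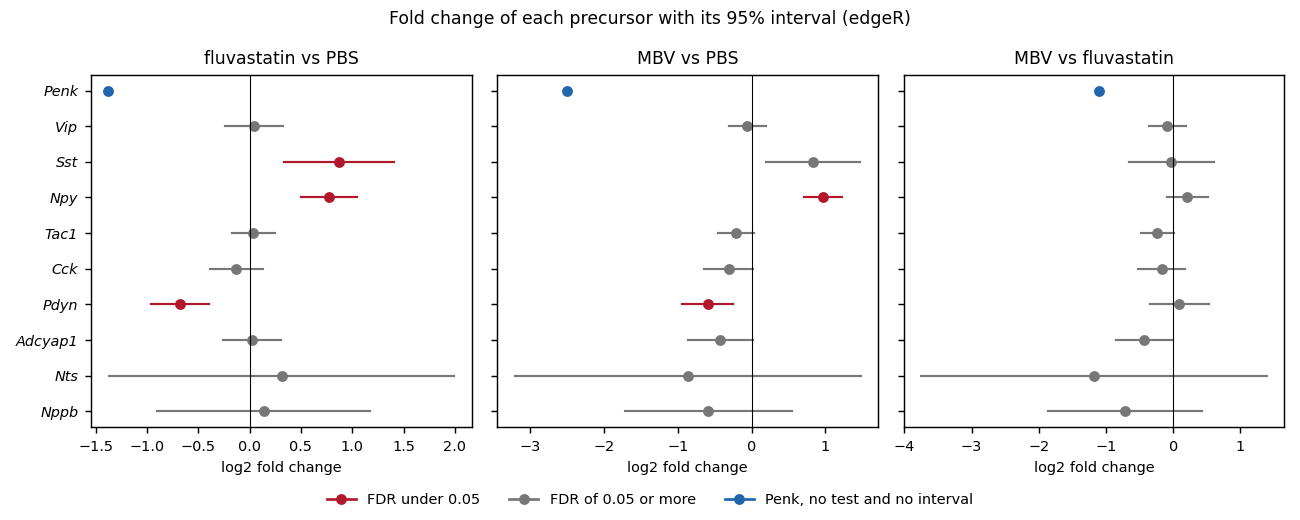
Fitted log2 fold change (horizontal axis) of the 10 precursors in the 3 comparisons, with 95% intervals for all but Penk, which was not tested. Npy lay to the right of 0 and Pdyn to the left in both comparisons with PBS, and no interval in the comparison of MBV with fluvastatin belonged to a called gene.

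Counted by ranges alone, 2 members lay above PBS and 1 below with fluvastatin, where 36.6% of genes did not overlap (17.3% above and 19.3% below), and 2 above and 2 below with MBV, Penk among the latter, where 41.3% did not overlap (20.3% above and 21% below). The remaining 6 precursors overlapped PBS in both comparisons and were not called. Vip had 7.70, 6.21 and 7.60 CPM in PBS, 6.59, 8.34 and 7.21 CPM with fluvastatin and 6.94, 7.22 and 6.67 CPM with MBV. The groups lay on top of each other, and the 95% interval of the log2 fold change was -0.24 to 0.32 for fluvastatin (edgeR FDR = 0.848) and -0.31 to 0.20 for MBV (0.751).

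Tac1 and Adcyap1 had nearly the same pattern as each other. Tac1 had 17.8, 16.3 and 19.98 CPM in PBS, 16.8, 20.3 and 18.3 CPM with fluvastatin and 14.3, 14.7 and 18.1 CPM with MBV. Adcyap1, a peptide gene of the light-sensitive ganglion cells, had 13.3, 11.1 and 15.7 CPM, 12.2, 15.3 and 13.2 CPM and 7.86, 8.72 and 13.5 CPM in the same order. For both, replicates 1 and 2 of MBV were the lowest of the 9 libraries and replicate 3 was among the PBS values. The log2 fold changes with MBV were -0.21 for Tac1 (95% interval -0.45 to 0.03, edgeR FDR = 0.188) and -0.42 for Adcyap1 (-0.87 to 0.02, edgeR FDR = 0.151). Without MBV replicate 3 they were -0.32 (edgeR FDR = 0.0217) and -0.70 (edgeR FDR = 0.00229), so that library decided both results. With fluvastatin the intervals were -0.18 to 0.25 and -0.26 to 0.31.

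The r between Tac1 and Adcyap1 was 0.980 over the 9 libraries and 0.979 over the 6 treated ones, the highest of the 28 pairs among the 8 members with a mean of at least 1 CPM. The next highest were Penk with Pdyn at 0.929 and Sst with Npy at 0.861. Each of Tac1 and Adcyap1 was among the 5 genes most like the other, together with Clta (clathrin light chain A; r = 0.989 and 0.983), Rpl38 (a ribosomal protein; 0.962 and 0.973) and Fbxo7 (0.956 and 0.953). Clta itself ranged only from 85.8 to 95.9 CPM over the libraries, whereas Adcyap1 ranged from 7.86 to 15.7 CPM.

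Cck had 5.69, 6.28 and 6.72 CPM in PBS, 6.06, 5.38 and 5.64 CPM with fluvastatin and 5.15, 5.89 and 4.11 CPM with MBV. Its lowest value was in MBV replicate 3, unlike those of Penk, Pdyn, Tac1 and Adcyap1, and the groups overlapped. The 95% intervals of its log2 fold change were -0.39 to 0.13 with fluvastatin (edgeR FDR = 0.484) and -0.65 to 0.02 with MBV (edgeR FDR = 0.161). Cck and Adcyap1 each overlap a long non-coding RNA gene of the other strand, Gm69828 and Gm32465.

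Nppb and Nts were close to the limit of detection. Nppb had 8, 6 and 11 counts in PBS, 5, 10 and 9 with fluvastatin and 4, 4 and 6 with MBV. Nts had 3, 7 and 3 counts in PBS, 10, 2 and 2 with fluvastatin and 6, 0 and 0 with MBV, where a count of 0 allows up to 0.137 and 0.128 CPM in MBV replicates 2 and 3. At this depth no difference was detectable for either, and the 95% intervals ran from -1.72 to 0.54 for Nppb and from -3.21 to 1.48 for Nts with MBV.

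MBV and fluvastatin were not separated in any member. By edgeR 0 of the 9 members tested were called, 1 (Adcyap1) had an unadjusted p under 0.05, and DESeq2 called 0, where 0.0588% of 18721 genes were called by edgeR (0.0267% higher and 0.032% lower). All 10 ranges overlapped, where 16.4% of genes did not (8.53% higher and 7.88% lower). The log2 difference, MBV relative to fluvastatin, was -0.43 for Adcyap1 (SE 0.187, edgeR FDR = 0.454), -0.24 for Tac1 (SE 0.111, edgeR FDR = 0.488) and 0.21 for Npy (SE 0.136, edgeR FDR = 0.617). For Pdyn it was 0.09, with a 95% interval of -0.35 to 0.53, and for Vip -0.09, with an interval of -0.37 to 0.19. Without MBV replicate 3 Adcyap1 was called lower with MBV (-0.71, edgeR FDR = 0.0331).

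Of 18 other neuropeptide precursors, 17 had a count and were tested in each comparison with PBS, but only 5 had a mean of at least 1 CPM. With fluvastatin edgeR called 0 (2 at an unadjusted p under 0.05, 0 by DESeq2) and with MBV 1, where 19.6% and 26.1% of all genes were called. Low counts limit what this list can show. The precursor called, Cartpt, which encodes the CART peptide, had 48.6 to 54.5 CPM in PBS and 45.3 to 46.1 CPM with MBV (log2 fold change -0.20, SE 0.0545, edgeR FDR = 0.0237), and its call was lost in 4 of the 6 fits without a library (PBS 1, PBS 3, MBV 1 or MBV 2), with an edgeR FDR of 0.0508 to 0.110. Of 22 receptors for the members' peptides, 13 had a mean of at least 1 CPM, and the others were low as well. Against the same shares of all genes, edgeR called 1 with fluvastatin and 0 with MBV (5 at an unadjusted p under 0.05, 0 by DESeq2). The receptor called, Cckbr for cholecystokinin and gastrin, had 6.92 to 7.98 CPM in PBS and 8.74 to 10.7 CPM with fluvastatin (0.41, SE 0.110, edgeR FDR = 0.0267), and lost its call in 4 of 6 such fits (PBS 1, PBS 2, fluvastatin 1 or fluvastatin 2), with an edgeR FDR of 0.0553 to 0.115.

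Of 13 genes of peptide processing and dense-core granules, 4 rose and 3 fell with fluvastatin, and 1 rose and 3 fell with MBV, where 19.6% and 26.1% of all genes were called. Chgb, the granule protein chromogranin B, rose from 123 ± 4.87 CPM to 160 ± 10.9 with fluvastatin (log2 fold change 0.39, edgeR FDR = 0.00205) and 144 ± 3.76 with MBV (0.23, edgeR FDR = 0.00785). Qpct, glutaminyl cyclase, which forms the N-terminal pyroglutamate of neurotensin and other peptides, fell from 37.0 ± 3.16 CPM to 26.2 ± 2.05 (-0.50, edgeR FDR = 0.00267) with fluvastatin and 26.2 ± 0.675 (-0.50, edgeR FDR = 0.00144) with MBV. Pam, the enzyme that amidates peptides such as neuropeptide Y and substance P, fell by 0.19 and 0.32 on the log2 scale, with edgeR FDRs of 0.0219 and 0.00192. The 4 calls of Chgb and Qpct held in every fit without a library, as did that of Pam with MBV, while that of Pam with fluvastatin was lost in 3 of 6 (PBS 1, PBS 3 or fluvastatin 2).

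Of 8 peptidases that cleave neuropeptides, 2 rose and 3 fell in each comparison with PBS, against the same shares of all genes. Ece1 and Ece2, endothelin-converting enzymes, rose by log2 values of 0.22 and 0.31 with fluvastatin and 0.28 and 0.32 with MBV. The MBV calls held in every fit without a library, whereas that of Ece1 with fluvastatin was lost in 3 of 6 (PBS 1, PBS 2 or fluvastatin 2) and that of Ece2 in 5 of 6 (all but fluvastatin 1), at edgeR FDRs of 0.0644 to 0.143. Mme, neprilysin, fell from 4.13 to 5.56 CPM in PBS to 3.34, 1.42 and 0.890 CPM with fluvastatin (log2 fold change -1.37, SE 0.351, edgeR FDR = 0.0218) and to 1.21, 0.868 and 3.34 CPM with MBV (-1.44, SE 0.394, edgeR FDR = 0.0263). The higher treated libraries were the same as for Penk, with which Mme had an r of 0.967. The fluvastatin call of Mme was lost in 3 of 6 fits without a library (PBS 1, fluvastatin 2 or fluvastatin 3) and the MBV call in 5 of 6 (all but MBV 3), at edgeR FDRs of 0.0517 to 0.101. Dpp4 and Nln, the other 2 that fell, kept their calls in at most 3 of the 6 fits in each comparison.

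**Figure D4:**
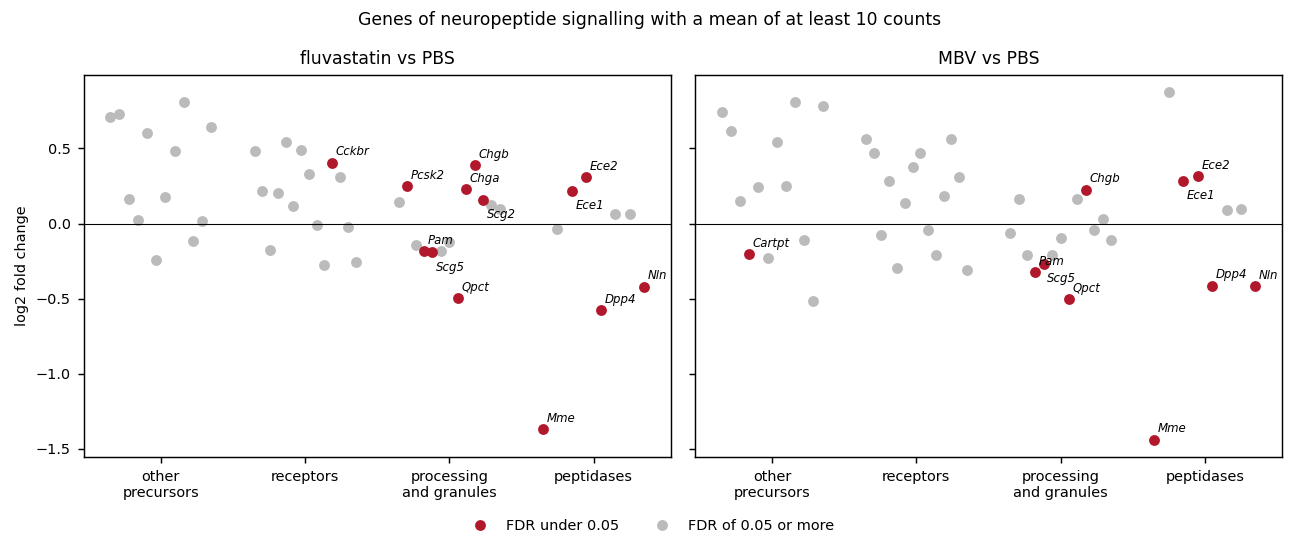
Log2 fold change from PBS (vertical axis) of the other precursors, the receptors, the processing and granule genes and the peptidases with a mean of at least 10 counts. Red points are genes with an edgeR FDR under 0.05, and of these Mme lay lowest in both comparisons, at -1.37 and -1.44.

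Between MBV and fluvastatin edgeR called 0 genes of these 4 lists. At an unadjusted p under 0.05 there were 1 other precursor, 1 receptor, 3 processing genes and 1 peptidase, and DESeq2 called 1, the granule gene Scg2.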

How the data were processed

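Whole-retina total RNA was sequenced as 75 base paired-end reads. Alignment to GRCm39 and counting were done by the authors in CLC Genomics Workbench, and they deposited 4 tables of raw read counts per gene, without normalization. Columns with the authors' own comparisons (fold changes, p-values) were not used. The 6 count columns of the combined-treatment table carry no library name, so they were used in no step. The counts of the 9 named libraries came from 3 tables, in which 9 repeated columns were identical. Replicates differed by more than sampling noise, and since nothing in the labels says they came from separate animals, p-values measure only the spread between these samples.

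The 10 members and the 15 gene lists beside them were chosen with earlier results of these data known. Named genes were all members, the up to 5 genes of lowest FDR called in each list, and the 5 genes per member with the highest Pearson r of log2(CPM + 0.5) over 9 libraries, among genes with a mean of at least 1 CPM, of which 1 is not reported here.

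Counts were analysed with edgeR 4.0.16 in R 4.3.3. Each comparison was a fit of 2 groups with TMM factors, genes with at least 1 count in at least 1 library, the quasi-likelihood test and Benjamini-Hochberg adjustment over all genes, with calls at an FDR under 0.05. The coefficient of variation between replicates was 7.78%, 8.57% and 10.1% for fluvastatin with PBS, MBV with PBS and MBV with fluvastatin. Each SE is the absolute log2 fold change divided by the square root of the quasi-likelihood F statistic, and intervals are 95% t intervals built on it. The SEs of Penk come the same way and were not used as a test. A count of 0 allows up to 3 counts, a limit that covers counting error only. Levels are CPM on the TMM-scaled totals, per kb of the Ensembl canonical transcript of GENCODE mouse release 39. On counts simulated for each comparison, 2-fold changes were recovered for 100% of 92 genes for fluvastatin with PBS (11 false calls among 18818 genes), 97.9% of 94 for MBV with PBS (10 among 18897) and 98.2% of 110 for MBV with fluvastatin (6 among 18721). The simulation gave every gene the same variation between replicates and changed only well-counted genes. It therefore does not show the power for members of wider spread, or of few counts such as Nts and Nppb. Alternatives were DESeq2 1.42.0, RLE factors, a minimum of 10 counts in 2 libraries, 1 fit of 9 libraries, the replicate number as a block, raw library totals for CPM, and each library left out in turn.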

Additional observations from a re-analysis of the deposited data

How the results depend on the processing

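Over the alternatives that kept all libraries, 137 of 140 member results kept their direction and, for the members tested, their side of the threshold. The exceptions were Sst, at an edgeR FDR of 0.0512 with fluvastatin and 0.0458 with MBV in 1 fit of 9 libraries, and Adcyap1 with MBV, at 0.0458 with the replicate block. Penk, not tested, was counted as kept when its log2 fold change moved by less than the SD of its log2 levels in the treated group (MBV between the treatments). The treated libraries differed widely in Penk, so that limit was loose. A Penk result counted as kept therefore says little of its stability. With CPM from raw library totals, the 30 group means moved by less than their replicate SD. The replicate numbers did not pair the libraries (r of same-numbered deviations -0.43 to 0.19), and the block changed no other call of a member. It gave 3727 genes called with fluvastatin, 3876 with MBV and 0 between MBV and fluvastatin. That last comparison had 11 genes called, 126 by DESeq2, 38 in 1 fit of 9 libraries, 5 with a minimum of 10 counts, and 1649 without fluvastatin 1 and MBV 3 together, an alternative chosen after seeing the data. The cause was not tested.

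Leaving out a library at a time gave 1726 to 4402 genes called with fluvastatin, 2711 to 5664 with MBV and 0 to 197 between the treatments, against 3687, 4937 and 11. The lowest of the first pair came without PBS 1, and without fluvastatin 2 there were 2113. The log2 fold change of Penk ran from -3.60 to -0.89 with fluvastatin, from -3.98 to -2.08 with MBV and from -2.60 to 1.12 between the treatments. Members that were not called crossed 0. With fluvastatin these were Vip (-0.0552 to 0.119), Tac1 (-0.0387 to 0.118), Adcyap1 (-0.0953 to 0.155), Nts (-0.88 to 0.81) and Nppb (-0.0612 to 0.46). Between the treatments they were Vip (-0.16 to 0.00915), Sst (-0.36 to 0.19), Pdyn (-0.12 to 0.26) and Nts (-5.22 to 0.0181, and 0.56 without fluvastatin 1 and MBV 3). In that last setting Tac1 (-0.42, edgeR FDR = 0.00446) and Adcyap1 (-0.78, edgeR FDR = 1.14e-05) were called lower with MBV. Of the named genes of the lists, 39 of 387 results lost their call with all libraries kept and 151 of 468 with a library left out, and none turned direction. The comparisons of the combined treatment, and those averaged over library sets, were not run because its columns carry no library name. Counts under about 10 per library, as for Nts and Nppb, limit what this depth can show.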

Other observations

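The marker lists were chosen with earlier results of these data known, so their calls are a description. Over all genes, edgeR called 9.36% higher and 10.2% lower with fluvastatin, and 12% higher and 14.1% lower with MBV. Of 10 pigment cell markers, edgeR called 1 higher and 5 lower with fluvastatin and 5 lower with MBV, among them Pmel, Dct, Tyr, Tyrp1 and Mlana, genes of melanosomes and melanin synthesis, all 5 lower in both. The gene called higher, named after its values were seen, was Rdh5, a retinol dehydrogenase of the pigment epithelium, with 4.38 ± 0.560 CPM in PBS and 8.19 ± 3.03 CPM with fluvastatin (log2 fold change 0.90, SE 0.248, edgeR FDR = 0.0294). Its call was lost in 5 of 6 fits without a library (all but fluvastatin 1), at an edgeR FDR of 0.0528 to 0.132. Its log2 fold change with MBV was 0.47 (edgeR FDR = 0.180). Those of Rpe65 and Lrat, also of the pigment epithelium and not called, were 0.51 and 0.80 with fluvastatin and 0.36 and 0.67 with MBV. Lens markers took another course, with 8 of 9 called higher with MBV and 1 lower with fluvastatin. Their sum was highest in MBV replicate 1, at 160 CPM, where Penk was at 3.00 CPM. In the amacrine list, Meis2 and Slc6a9 (the glycine transporter of glycinergic amacrine cells) were called higher in both comparisons with PBS, and in the RGC list Nefh (neurofilament heavy chain) was. The calls of Slc6a9 were lost in 4 of 6 fits without a library in each comparison (PBS 1, PBS 2, PBS 3, and fluvastatin 2 or MBV 2). The part of these lists in the values of the neuropeptide precursors was not tested.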
